A study of Mus musculus with 4 samples.

Results

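The 10 genes described here, Egln1, Egln3, Ldha, Adm, Ankrd37, Vegfa, Pgk1, Bnip3, Pdk1 and P4ha1, are textbook targets of the hypoxia-inducible factors, and several act in glucose use. They were chosen by symbol from probe sets annotated with exactly 1 gene, and the brightest probe set stood for a gene that has several. All 10 were measured, among 19938 genes on the array. The samples were whole brains of fetuses of C57BL/6J mice, an inbred strain, at embryonic day 16. Dams received 2.5 g of ethanol per kg in saline, or the same volume of saline, by injections on gestational days 14 and 16. Each of 2 ethanol pools and 2 control pools combined RNA of 3 mice (12 mice in all). The sex of the fetuses is labelled unknown, and nothing used here ties a pool to a litter, so that p-values measure only the spread between these pools.

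Hypoxia-inducible factors are pairs of an oxygen-labile alpha subunit (Hif1a or Epas1) and a stable partner (Arnt). In the presence of oxygen, prolyl hydroxylases of the Egln family mark the alpha subunit for destruction through the von Hippel-Lindau protein. When oxygen is short, the pair binds short DNA elements with a core of ACGTG or GCGTG and raises transcription of genes for glycolysis, vessel growth, mitophagy and collagen modification. Several of these genes, Egln3 among them, feed back on the pathway, and in the developing brain the pathway takes part in vessel ingrowth.

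None of the 10 genes passed the test across all genes, and every difference was small. The largest were lower levels in ethanol of Egln3, Ldha and Adm, each 1.10- to 1.15-fold higher in control, and a 1.09-fold higher level of Ankrd37 in ethanol. In all, 6 genes lay below 0 and 4 above (log2 difference, ethanol minus control), with a median of -0.05, against a median of 0.01 over all genes, of which 45.8% lay below 0. In 4 genes both ethanol pools lay below both control pools (14% of all genes) and in 2 both lay above (17.4%). Together these were 6 of 10 genes with groups that do not overlap, against 31.4% of all genes. By limma with Benjamini-Hochberg adjustment over all genes, the members' adjusted p ran from 0.980 to 0.997, and 0% of genes were called at an adjusted p under 0.05. At an unadjusted p under 0.05 there were 0 members, against 2.94% of genes (587 of 19938). With each gene's own variance in place of the shared one, 0 genes were called after adjustment, and 1 member, Ankrd37, had an unadjusted p under 0.05, against 3.85% of genes. An exact permutation test of a single gene, two-sided, cannot go below 0.333 with 2 pools against 2.

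**Figure D1:**
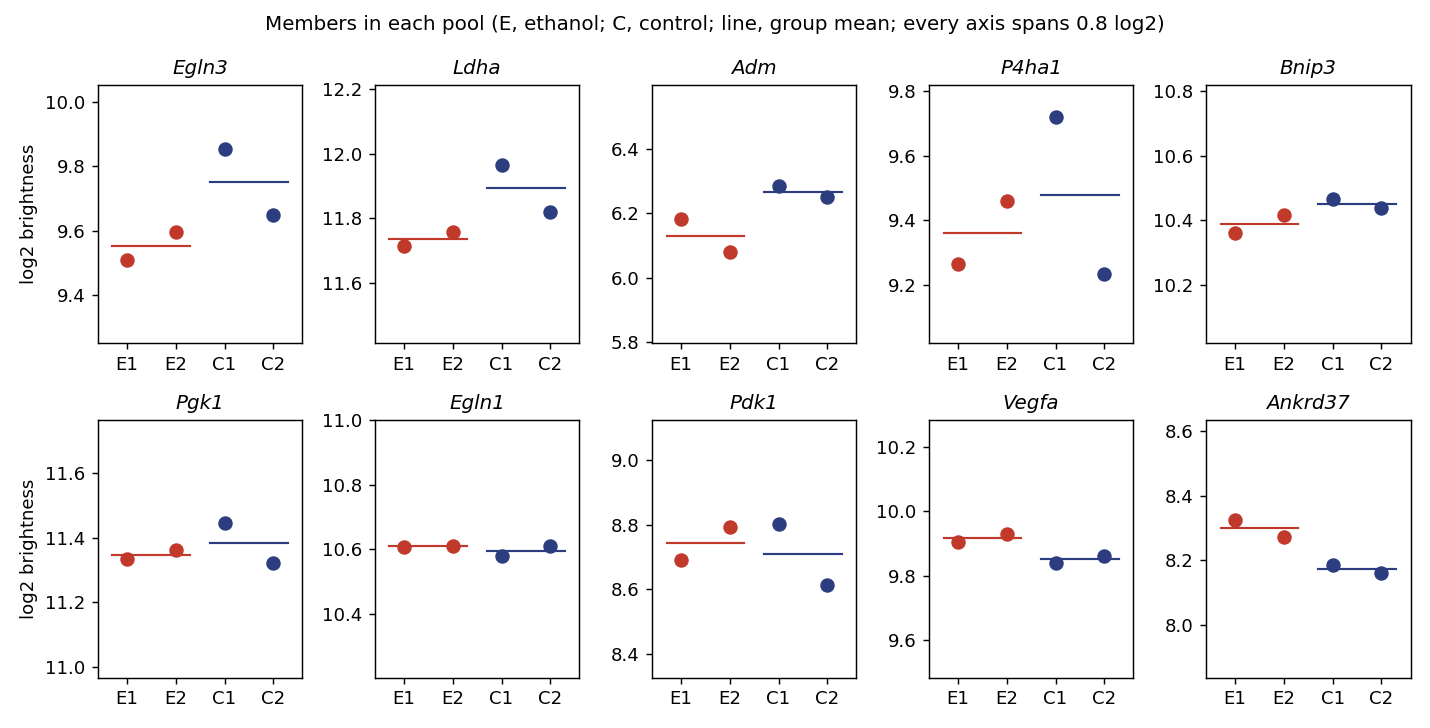
Log2 brightness of each gene (vertical axis, spanning 0.8 in every panel) in the ethanol pools (red, E1 and E2) and control pools (blue, C1 and C2), with group means as lines and panels ordered by difference. In Egln3, Ldha, Adm and Bnip3 both ethanol points lie below both control points, in Vegfa and Ankrd37 both lie above, and P4ha1 spreads most within the control group.

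Marker genes of several tissues differed in brightness between pools of a group. Markers of neurons (12 of 12) were above the upper quartile of each array, and markers of neural progenitors (10 of 10) above its median, as the tissue label has it. The 15 skeletal muscle markers, among them the actins Acta1 and Actc1, had a summed linear brightness of 2702 and 7894 in the first and the second ethanol pool, against 23073 in control 1 and 2622 in control 2. All 15 were highest in control 1. Markers of pericytes and meninges were highest there in 11 of 12 genes (median difference -0.21) and those of endothelium in 11 of 12 (median -0.15). The endothelial markers lay below 0 in 12 of 12 genes, and in 9 without control 1 (46.3% of all genes). Of them 7 (58.3%, against 31.4% of all genes) did not overlap, all lower in ethanol. The pericyte and meningeal markers lay below 0 in 11 of 12 genes, and in 2 without control 1, and 2 (16.7%) did not overlap. Summed brightness was 8993 and 11009 in the ethanol pools and 15346 and 9541 in the control pools for the pericyte and meningeal markers, and 8673 and 8910 against 10464 and 8984 for the endothelial markers. Erythroid markers, 4 of 10 with an own probe set, summed to 1407 and 1962 in ethanol and to 2356 and 1291 in control. Xist, transcribed from the inactive X chromosome of females, stood at 6.10 in control 1 and at 12.0 to 12.8 in the other pools. Of the 10 hypoxia-inducible genes, 7 were highest in control 1, against 26.8% of all genes. In such bulk tissue fewer cells of a type and less RNA per cell cannot be told apart, and the part of these marker differences in the results was not tested.

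Because a shared binding element defines the pathway, the 250 bases before each annotated start were searched for ACGTG and GCGTG on both strands (RefSeq windows, build GRCm38.p6). The letters CACGTG count as a match on each strand. All 10 genes had a match in at least 1 window, and 11 of their 13 windows did (84.6%), against 38.6% of the 32851 windows of all genes. More than 1 match was present in 61.5% of the members' windows and in 16.7% of all windows. The members' windows were also rich in CG dinucleotides (median 17 against 6), and 69.2% of the 7728 windows with at least 17 held a match. A match is a description of letters and not a binding site. Windows of Egln3, Ldha (the first of 2), Adm and Ankrd37, the genes that differed most between groups that do not overlap, are given 5′ to 3′ on the gene's strand, with matches in capitals.
Egln3 (chr12:54203875-54204124, minus strand): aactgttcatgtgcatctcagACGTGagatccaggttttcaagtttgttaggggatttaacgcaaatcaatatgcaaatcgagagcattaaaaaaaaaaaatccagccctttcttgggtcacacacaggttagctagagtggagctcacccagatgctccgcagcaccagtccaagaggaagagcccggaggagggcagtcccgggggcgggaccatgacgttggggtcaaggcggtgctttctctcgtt
Ldha (chr7:46845554-46845803, plus strand): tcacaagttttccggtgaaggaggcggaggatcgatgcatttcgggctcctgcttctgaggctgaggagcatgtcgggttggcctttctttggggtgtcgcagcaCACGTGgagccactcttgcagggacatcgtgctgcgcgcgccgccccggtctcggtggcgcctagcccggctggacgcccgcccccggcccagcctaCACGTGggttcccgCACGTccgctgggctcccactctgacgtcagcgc
Adm (chr7:110627407-110627656, plus strand): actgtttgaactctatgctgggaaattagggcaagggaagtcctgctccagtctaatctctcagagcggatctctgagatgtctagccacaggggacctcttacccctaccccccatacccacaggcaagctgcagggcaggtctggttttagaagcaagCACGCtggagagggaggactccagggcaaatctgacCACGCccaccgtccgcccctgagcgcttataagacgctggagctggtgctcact
Ankrd37 (chr8:45999851-46000100, minus strand): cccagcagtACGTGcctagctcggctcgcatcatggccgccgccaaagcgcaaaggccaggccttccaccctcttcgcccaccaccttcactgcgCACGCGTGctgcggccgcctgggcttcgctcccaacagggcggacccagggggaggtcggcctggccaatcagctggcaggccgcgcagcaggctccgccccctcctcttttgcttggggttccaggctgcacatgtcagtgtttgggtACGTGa
The printed Ldha window held 5 matches, all ACGTG, of which 4 form a pair of CACGTG palindromes, and its second window (chr7:46846832-46847081) held 1, GCGTG. Ankrd37 held 4, Adm 2 (both GCGTG) and Egln3 1, the latter 229 to 225 bases before the start. Since all 10 genes had a match in at least 1 window, genes with and without a match could not be compared for their side of 0. Of the other genes, Bnip3 held 5, P4ha1 3, and Egln1 and Pgk1 2 each. Pdk1 held 1 in 1 of its 2 windows, and Vegfa held 2 in 1 of its 2 windows, with 0 before the start that lies farther upstream.

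**Figure D2:**
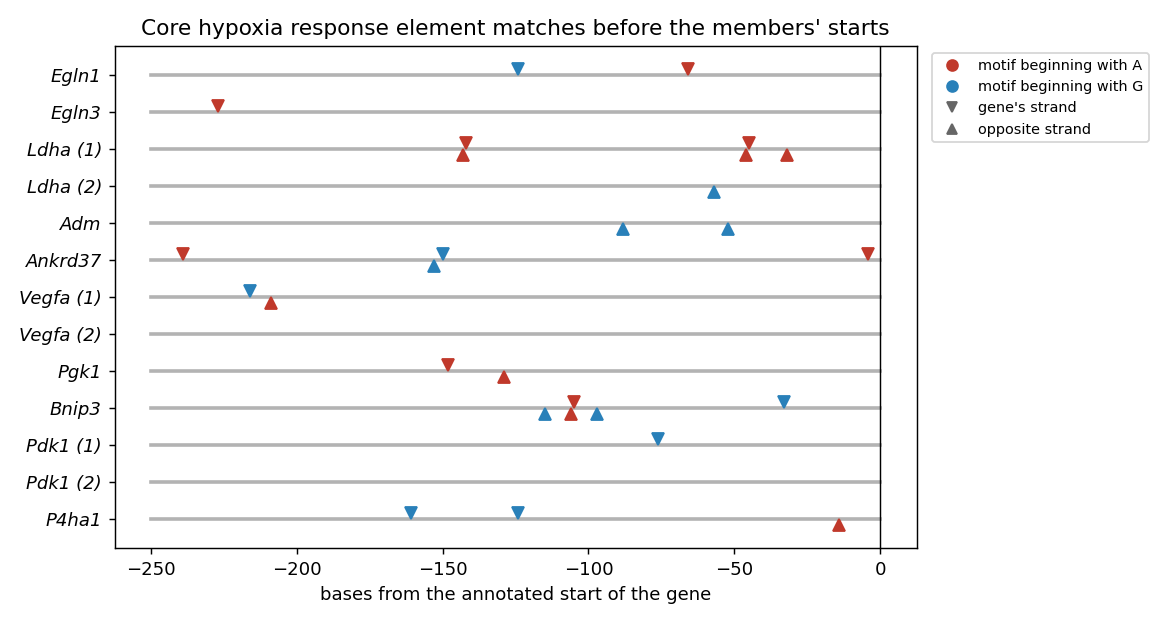
Matches to the core element (red, beginning with A; blue, beginning with G; pointing down, on the gene's strand; pointing up, on the opposite strand) against distance in bases from the annotated start, for the 13 windows of the 10 genes; windows of 1 gene are numbered by coordinate. The 5 matches in the first Ldha window and the 5 of Bnip3 contrast with 1 window each of Vegfa and Pdk1 that hold 0.

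Among the oxygen sensors, Egln3, the hydroxylase that is itself strongly induced by hypoxia, had the largest difference of the 10 genes. Its log2 brightness (probe set 10400304) was 9.51 in ethanol 1 and 9.59 in ethanol 2, against 9.85 in control 1 and 9.65 in control 2. Both ethanol pools were below both control pools, by 0.05 at the closest, while the control pools themselves were 0.20 apart. The log2 difference was -0.20 ± 0.09 (SE, 2 pools per group; 95% interval -0.43 to 0.03; limma adjusted p = 0.980), and it was -0.10 without control 1 and -0.30 without control 2. Egln1, the main hydroxylase acting on the alpha subunit in most tissues, was the flattest of the 10. Its level was 10.61 in both ethanol pools, against 10.58 in control 1 and 10.61 in control 2, with overlapping groups. Its difference was 0.01 ± 0.07 (95% interval -0.15 to 0.18). The third family member, Egln2, named for its family after its values were seen, stood at 0.10 ± 0.07, with the ethanol pools at 10.56 and 10.67 and the control pools at 10.54 and 10.49. The hydroxylases thus lay on different sides of 0, and the differences between them were not tested.

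The glycolytic members both lay below 0, and only Ldha had groups that do not overlap. Ldha, the lactate dehydrogenase subunit that turns pyruvate to lactate, had levels of 11.71 and 11.76 in the ethanol pools, against 11.96 in control 1 and 11.82 in control 2. The ethanol pools were 0.05 apart and the control pools 0.15, against 0.06 between the nearest pools of the groups. The difference was -0.16 ± 0.08 (95% interval -0.35 to 0.04; adjusted p = 0.980), or -0.08 without control 1 and -0.23 without control 2. Pgk1, the phosphoglycerate kinase of the first ATP-forming step of glycolysis, stood at 11.33 and 11.36 in ethanol and 11.45 and 11.32 in control. Control 1 was the highest and control 2 the lowest pool, so that the groups overlapped (difference -0.04 ± 0.07). Pdk1, a kinase that inhibits pyruvate dehydrogenase, had levels of 8.69 and 8.79 in ethanol, against 8.80 in control 1 and 8.61 in control 2. Its pools also overlapped (0.03 ± 0.09), and the sign turned to -0.06 without control 2.

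For Pgk1 and Bnip3, not all probe sets are numbered beside those of the gene's own chromosome. Pgk1 has 3 probe sets. Probe sets 10399379 and 10498313 held identical values on all 4 arrays, and 0 of the 10 nearest-numbered probe sets with a gene were on the chromosome of Pgk1 in either case. Probe set 10601390 had 10 of 10 neighbours on that chromosome and a difference of -0.04 ± 0.07 as well. For Bnip3, the brightest probe set (10414269) had 0 of 10 such neighbours and the dimmer one (10568785) 10 of 10. Where these probe sets lie was not checked against an array design, and a near-identical copy could be read, so the values of both genes are uncertain to that extent.

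Bnip3, a mitochondrial outer membrane protein of mitophagy and cell death, is the member whose grouping depended on that choice. The brightest probe set stood at 10.36 and 10.41 in ethanol and at 10.47 and 10.44 in control, lower in ethanol without overlap, by 0.02 at the closest (-0.06 ± 0.07). The probe set numbered among genes of its chromosome stood at 9.24 and 9.35 in ethanol and at 9.35 and 9.31 in control, with ethanol 2 the highest pool (-0.04 ± 0.07). Its groups overlapped, and its difference was 0.02 without ethanol 1 and -0.09 without ethanol 2. With this probe set, an alternative chosen after the data were seen, 5 and not 6 of the 10 genes had groups that do not overlap.

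The secreted vessel factors lay on different sides of 0, and the difference between them was not tested. Adm encodes adrenomedullin, a vasodilator peptide, and had levels of 6.18 and 6.08 in the ethanol pools, against 6.28 in control 1 and 6.25 in control 2. Both ethanol pools were lower, by 0.07 at the closest, with a difference of -0.14 ± 0.07 (95% interval -0.32 to 0.04; adjusted p = 0.980), which ran from -0.19 to -0.09 with a pool left out, the latter without ethanol 2. All 4 values lay below the lower quartile of their arrays (6.45 to 6.55), where a difference in brightness can understate one in RNA. Vegfa, the main growth factor of endothelial cells, stood at 9.90 and 9.93 in ethanol and at 9.84 and 9.86 in control. Both ethanol pools were higher, by 0.04 at the closest, and the pools within a group were 0.02 to 0.03 apart. Its difference was 0.07 ± 0.07 (95% interval -0.10 to 0.23) and ranged from 0.05 to 0.08 with any 1 pool left out.

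Ankrd37, an ankyrin repeat protein known as a direct target of the hypoxia-inducible factors, had the largest difference above 0. The ethanol pools had levels of 8.33 and 8.27, against 8.18 in control 1 and 8.16 in control 2. The ethanol pools were higher by 0.09 at the closest, more than the 0.05 and 0.02 between pools of a group. The difference was 0.13 ± 0.07 (95% interval -0.04 to 0.29; adjusted p = 0.980), from 0.10 to 0.15 with a pool left out. P4ha1, the catalytic subunit of the collagen prolyl hydroxylase, spread most, at 9.27 and 9.46 in ethanol and 9.72 and 9.23 in control. Its control pools were 0.49 apart and enclosed both ethanol pools. The pools of P4ha1, Pgk1 and Pdk1 had the same order as the summed muscle markers, with control 1 highest and control 2 lowest. The muscle sums of ethanol 1 (2702) and control 2 (2622) were close, and some muscle markers, such as Acta1, were lowest in ethanol 1. In Pgk1 probe set 10601390 ethanol 1 and control 2 were both at 11.32. The share of all genes with this order was not counted, and a link to muscle was not tested. The P4ha1 difference of -0.12 ± 0.17 became 0.13 without control 1 and -0.36 without control 2.

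**Figure D3:**
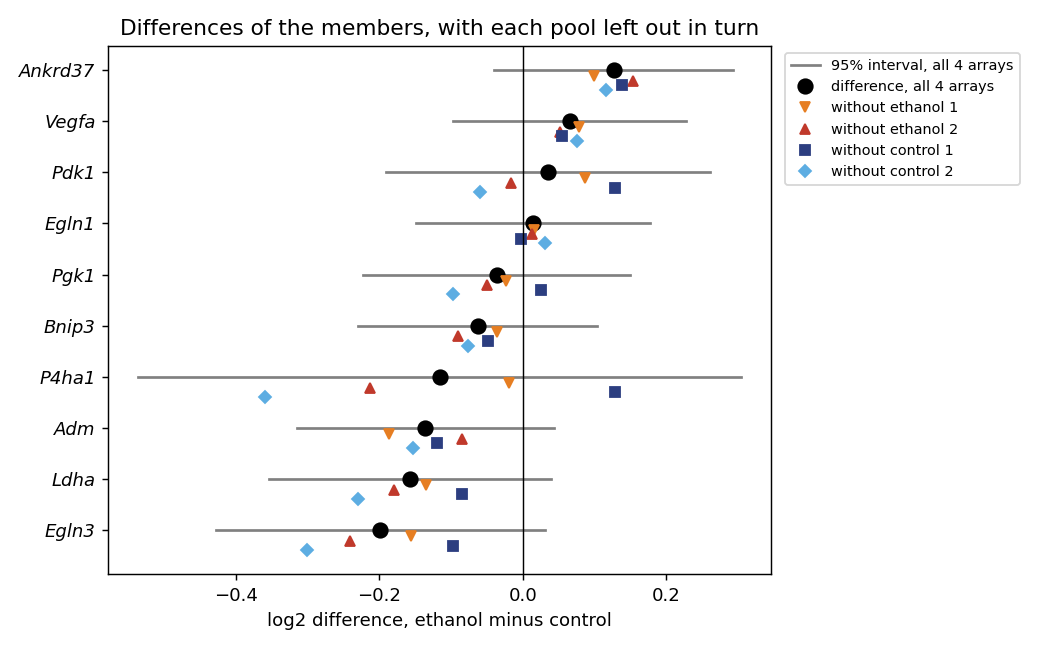
Log2 difference (ethanol minus control, horizontal axis) of each gene with all 4 arrays (black point, 95% interval as a grey line) and with 1 pool left out (coloured symbols). All 10 intervals include 0; P4ha1 ranges most with a pool left out, from -0.36 to 0.13, and Vegfa least, from 0.05 to 0.08.

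The direction of the group as a whole depended on the pools used, and its median changed side only without control 1. Without control 1 the median difference of the 10 genes was 0.01, with 5 of 10 below 0 (46.3% of all genes). Without control 2 it was -0.09, with 7 below 0 (44.7% of all genes). Without ethanol 1 it was -0.02, with 6 below 0, where all genes had a median of -0.008 and 54.6% below 0. Without ethanol 2 it was -0.07, with 7 below 0 (42.5% of all genes). For ethanol 1 against control 1 the median was -0.11, and for ethanol 2 against control 2 it was 0.02. Genes whose groups do not overlap keep their side of 0 with any pool left out by construction.

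Other genes of the pathway, 91 in 6 lists with 86 measured by an own probe set, had differences from -0.39 to 0.24. None passed the adjusted test by limma, and 3 had an unadjusted p under 0.05, where 2.94% of all genes did. By group separation they were close to the background, with 24 of 86 (27.9%) not overlapping, 16 lower and 8 higher in ethanol. By sign 58 of 86 lay below 0 (67.4%, against 45.8% of all genes), with a median of -0.03. Without control 1 the count was 42 (median 0.005), where 46.3% of all genes lay below 0. Without ethanol 1 it was 44 (median -0.002), where 54.6% of all genes did. It was 58 without ethanol 2 (42.5% of all genes) and 61 without control 2 (44.7%). Of the 86 genes 47 were highest in control 1, against 26.8% of all genes.

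Of the factors and their regulators, 10 of 15 lay below 0 (median -0.02). Epas1, the alpha subunit prominent in vessels, stood at 9.34 and 9.27 in ethanol and 9.52 and 9.37 in control (difference -0.14 ± 0.08). Without control 1 that difference was -0.06. Hif3a, an alpha subunit with inhibitory forms, had levels of 8.08 and 8.11 in ethanol and 8.37 and 8.12 in control, and its difference of -0.15 ± 0.10 came to -0.03 without control 1. Elob, a subunit of the von Hippel-Lindau ubiquitin ligase, stood at 0.11 ± 0.07. Hif1a itself, named after its values were seen, had overlapping groups at 11.78 and 11.98 in ethanol and 11.94 and 11.88 in control.

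Of the other hypoxia-inducible genes, 19 of 29 lay below 0 (median -0.04), and 7 (24.1%, against 31.4% of all genes) did not overlap, 4 lower and 3 higher. Car12, a membrane carbonic anhydrase that helps control pH, stood at 7.94 and 8.12 in ethanol and at 8.36 and 8.34 in control. That difference of -0.32 ± 0.08 had an unadjusted p of 0.0106 and an adjusted p of 0.980 by limma. Ddit4, a stress-induced inhibitor of mTORC1, had levels of 8.59 and 8.70 in ethanol and 8.49 and 8.32 in control. Its difference of 0.24 ± 0.09 had an unadjusted p of 0.0376 and an adjusted p of 0.980 by limma. Ndrg1, a stress-responsive gene, stood at -0.11 ± 0.07.

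Glycolytic genes other than the members had a median of -0.0007, with 8 of 15 below 0. Aldoa, an aldolase abundant in muscle, stood at 11.65 and 11.72 in ethanol and 11.96 and 11.76 in control, with control 1 the highest (-0.17 ± 0.09, and -0.07 without control 1). Slc16a1, a lactate and pyruvate transporter, stood at 8.53 and 8.71 in ethanol and at 9.003 and 8.79 in control (-0.28 ± 0.10, and -0.17 without control 1). Pfkm, a phosphofructokinase, stood at 0.09 ± 0.07, and at 0.05 without ethanol 2 or control 2. Of the pyruvate dehydrogenase genes 9 of 11 lay below 0 (median -0.05), and 6 without control 1. The groups did not overlap in 2 of 11 (18.2%, against 31.4% of all genes). These were the subunits Pdhb at -0.13 ± 0.07 and Dlat at -0.07 ± 0.07.

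Receptors and related ligands of VEGF and adrenomedullin lay below 0 in 9 of 12 genes (median -0.11). Vegfb, Vegfc and Ramp3, named after their values were seen, lay above 0, as did the member Vegfa. Vegfb and Vegfc stood at 0.05 and 0.08 with overlapping groups. Ramp3 stood at 0.13 ± 0.08, with both ethanol pools above both control pools. Ramp2, the partner that makes the calcitonin receptor-like receptor respond to adrenomedullin, stood at 8.52 and 8.54 in ethanol and at 8.74 and 8.64 in control (-0.16 ± 0.07). Pgf, a VEGF relative, stood at -0.16 ± 0.07 and Ramp1, a partner of the same receptor, at -0.12 ± 0.07. The endothelial markers given above, which share Kdr and Flt1 with this list, also had a median below 0, and the median of this list without control 1 was -0.03. Of the 4 further collagen hydroxylase genes 3 lay below 0, and all 4 were highest in control 1.

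**Figure D4:**
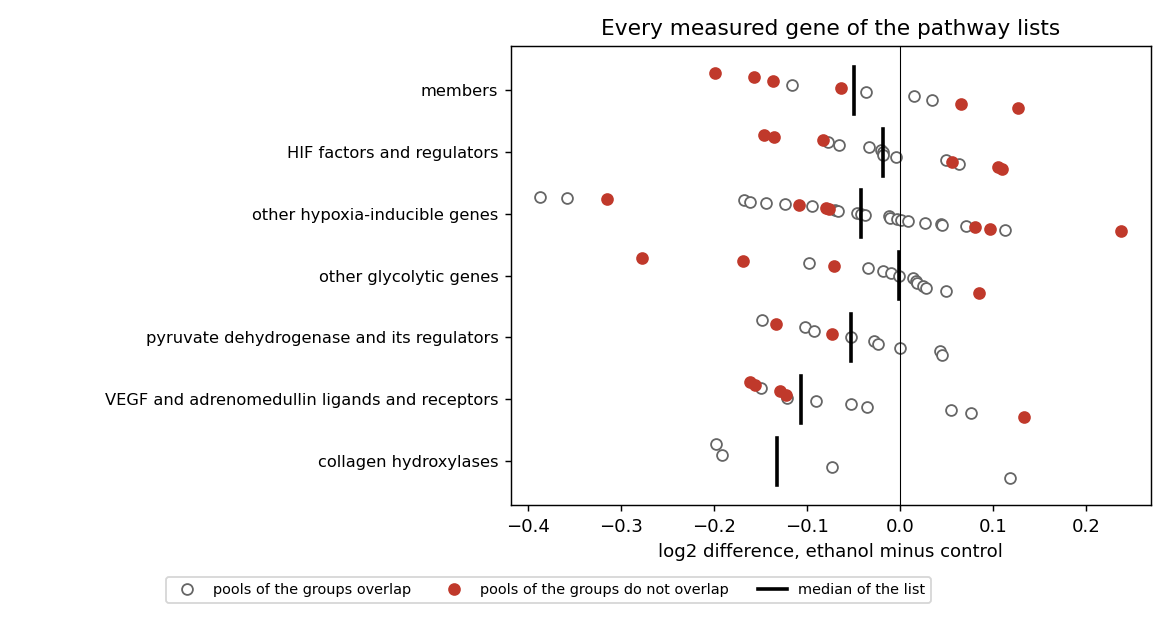
Log2 difference (ethanol minus control) of every measured gene of the members and the 6 other lists, red where the pools of the groups do not overlap and white where they do, with list medians as black bars. Medians run from -0.13 (4 collagen hydroxylases) to -0.0007 (15 other glycolytic genes).

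**Figure D5:**
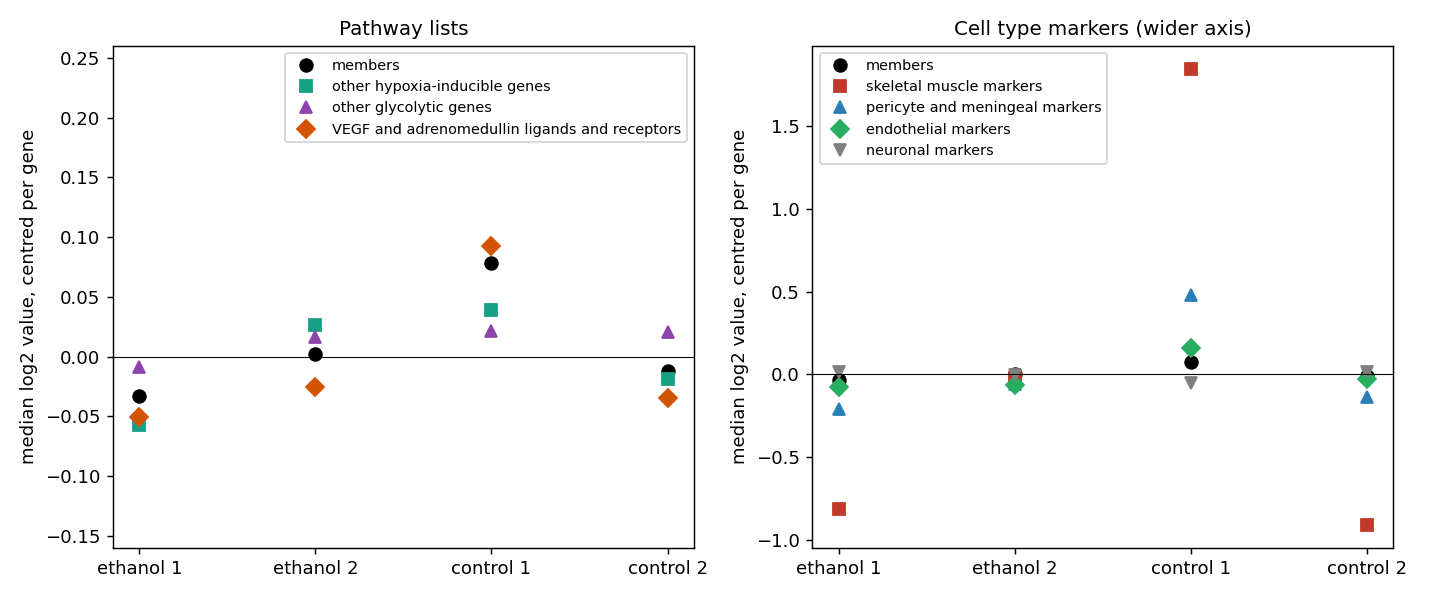
Median log2 value of a list in each pool after centring each gene on its mean over the 4 pools, for pathway lists (left) and cell type markers (right, wider axis). The 10 members are highest in control 1 (0.08), where the skeletal muscle markers reach 1.85.

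The pathway genes nearest to the members' median pattern (mean absolute distance of centred values over the 4 pools, 86 candidates) were Ep300 (0.0154), Pdhx (0.0172), Bnip3l (0.0183) and Jmjd6 (0.0184). All 4 had overlapping groups and were highest in control 1, with differences from -0.04 to -0.01. The members' median pattern is itself highest in control 1, so this likeness follows from how the 4 were chosen.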

How the data were processed

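The deposited values are log2 brightness per probe set and array. Base 2 was taken from their range, since it is not stated. The authors used Partek 6.6, per the submitters' processing notes, and how they corrected background, normalized and summarised probes is not stated there. Of 35556 probe sets, 21789 had 1 gene symbol, updated by Entrez identifier through a table of assembly GRCm38.p6 (91 kept the older symbol).

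Groups were compared with limma 3.58.1 in R 4.3.3 (lmFit, eBayes without trend, 2 residual and 5.65 total degrees of freedom), two-sided, over 19938 genes. Intervals of 95% use the moderated SE. The median SE of a difference was 0.079, and the 4 arrays limit the precision. The fit was tested on simulated data.

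The members and lists were chosen with earlier results of these data known. Named were all members, per pathway list the 3 genes with the smallest p whose groups do not overlap, and the 4 nearest patterns. Lists are described by counts and medians, without a test. Alternatives were probe set summary, scaling, a filter on dim genes, variance models, a replicate block and leaving out each array.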

Additional observations from a re-analysis of the deposited data

How the results depend on the processing

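With 1 array left out, 0 to 4 genes passed the adjusted threshold (the 4 without control 2, none of them a member), 5 to 7 members lay below 0, and the members' median ran from -0.087 to 0.011, above 0 only without control 1. Sign changes among members came only from leaving out an array. Egln1 then ranged from -0.0025 to 0.031, Pgk1 from -0.098 to 0.025, Pdk1 from -0.059 to 0.13 and P4ha1 from -0.36 to 0.13. Quantile normalization of the deposited values and median centring changed 20 member values. The mean of probe sets or other probe sets of Pgk1 and Bnip3 changed 4, and none of these 24 changed sign. Other variances, the brighter genes and the replicate block leave a difference as it is by construction. No label says that equal replicate numbers pair arrays, and the deviations of such arrays correlated at -0.484; with the replicate block 0 genes passed the adjusted threshold. Adm was not among the brighter genes and has no value there.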
